A study of Mus musculus with 44 samples.

Results

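Among 15 Treg libraries of mouse CD4 T cells, 4 held little mRNA of Foxp3 and 11 held much, and these 2 sets were described against each other. The counts of the 2 sequencing lanes of each library were summed, and Foxp3 was expressed as CPM, counts scaled to a common library total. Libraries under 250 CPM formed the Foxp3-low set and the others the Foxp3-high set, so the members were chosen by their measured Foxp3 counts and Foxp3 itself is no result. The Foxp3-low libraries were Treg WT 4 at 47.6 CPM, Treg KI 3 at 61.98 CPM, Treg KO 2 at 77.4 CPM and Treg WT 3 at 161 CPM. The Foxp3-high libraries held from 365 to 599 CPM, with a median of 538 CPM. Nearest to the limit were Treg WT 3, at 161 CPM, in the Foxp3-low set and Treg KO 3, at 365 CPM, in the Foxp3-high set.

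The Foxp3-low set held 2 libraries of wild-type (WT) cells, 1 of knockout (KO) cells and 1 of knock-in (KI) cells, and the Foxp3-high set 3 WT, 4 KO and 4 KI libraries. The genotypes concern miR-150, a microRNA of lymphocytes, and all mice were of the C57BL/6NTac strain. All libraries came from naive CD4 T cells that had been sorted from spleen cells and cultured for 3 days on antibody to CD3 with antibody to CD28. Treg cultures also received TGF-b1 and an antibody to IFN-g, Th1 cultures IL-12 and an antibody to IL4, and Th0 cultures nothing further. The series holds 44 libraries in all, 15 Treg, 14 Th0 and 15 Th1. Libraries are named by culture, genotype and the number in their label. The labels state neither the age of the mice nor how the alleles were made. The labels do not say whether a number marks an animal, and the p-values below then measure the spread between libraries, which may be technical.

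Foxp3 encodes the transcription factor that defines regulatory T cells, and T cell receptor signals with TGF-beta induce it in naive CD4 T cells in culture. T-bet, encoded by Tbx21, instead drives interferon-gamma production and the Th1 fate, and interferon-gamma acts back on T cells to raise T-bet. Granzymes and perforin are the granule proteins by which CD8 T cells and NK cells kill, and activated CD4 T cells can make some of them. Cd8a encodes the alpha chain of the CD8 co-receptor, which cells sorted as CD4 T cells should lack.

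Total counts ran from 98108087 to 119542687 in the Foxp3-low libraries and from 60815821 to 120420552 in the Foxp3-high libraries, within 60815821 to 137415965 over all 44. Mitochondrial transcripts took 2.54% to 3.08% of the counts in the Foxp3-low set and 2.83% to 5.26% in the Foxp3-high set. A floor of 3 counts stood at 0.0218 to 0.0493 CPM and stands for counting error alone. Foxp3 stood between 0.340 and 3.11 CPM in Th0 libraries and between 0.573 and 4.41 CPM in Th1 libraries. These values are given as a description, since Foxp3 chose the Treg sets. From here on, levels are CPM scaled by TMM, a factor that evens out library composition. Differences between the Treg sets are differences of the set medians of log2(TMM CPM + 0.5). Across the 21873 genes kept by the filter on low counts their median was 0.00. A gene is called separated where no Foxp3-low library overlapped the Foxp3-high range and the medians lay at least 1 log2 unit apart. All genes belong to the libraries that the Foxp3 limit divided, so nothing is tested between the Treg sets.

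The CD8 co-receptor genes moved with the division. Cd8a (chromosome 6, 71373427 to 71379173, plus strand, GRCm38) stood at 443 TMM CPM in Treg WT 4, 318 in Treg KI 3, 73.1 in Treg KO 2 and 23.9 in Treg WT 3. The 11 Foxp3-high libraries ran from 4.16 through a median of 13.1 to 18.4 TMM CPM, so the sets did not overlap, with a difference of 3.49. Treg WT 4 and Treg KI 3 stood far above every other library of the series in Cd8a, where the highest outside the Foxp3-low set was 131.5 TMM CPM, while Treg WT 3 stood just above the Foxp3-high range. Cd8b1, the beta chain, stood at 147, 88.8, 20.6 and 7.88 TMM CPM in Treg WT 4, KI 3, KO 2 and WT 3, against 2.78 to 12.7 TMM CPM with a median of 8.72 in the Foxp3-high set. Treg WT 3 lay inside that range. Cd4, the co-receptor of the sorted cells, stood at 289, 389, 440 and 546 TMM CPM in Treg WT 4, KI 3, KO 2 and WT 3, against 493 to 697 with a median of 598 in the Foxp3-high set. In the 4 Foxp3-low libraries the order of Cd4 was the reverse of that of Cd8a. In bulk RNA, fewer cells of a type and less RNA per cell cannot be told apart.

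**Figure D1:**
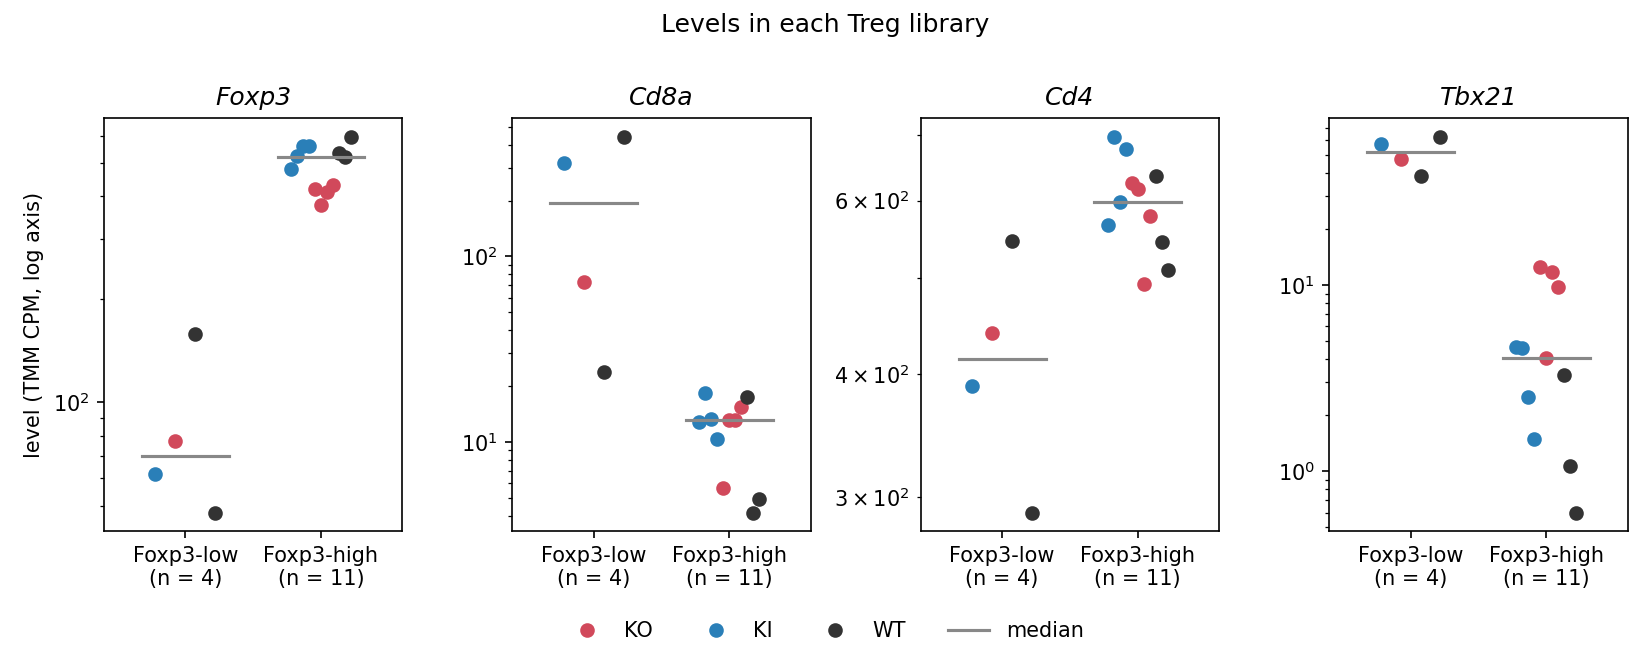
Levels of Foxp3, Cd8a, Cd4 and Tbx21 in each of the 15 Treg libraries, in TMM CPM on a log axis, with the 4 Foxp3-low libraries left of the 11 Foxp3-high libraries. Points are libraries coloured by genotype and grey lines are set medians. Cd8a reaches 443 TMM CPM in the Foxp3-low set and stays at 18.4 or below in the Foxp3-high set, while Cd4 overlaps between the sets.

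Of 21873 genes, 335 were separated with higher levels in the Foxp3-low set, which is 1.53%, and 273 with lower levels, which is 1.25%, together 2.78%. Since the Foxp3 limit chose the libraries, nothing is read from these shares. Treg WT 3 was the Foxp3-low library closest to the Foxp3-high set for 197 of the 335 higher genes, or 58.8%. Treg KI 3 was the closest for 47.99% of the 273 lower genes. Without the 2 libraries highest in Cd8a, Treg WT 4 and Treg KI 3, 479 genes were higher and 483 lower, with 294 and 253 of them among the 335 and the 273. Treg WT 3 alone, whose Cd8a was near the Foxp3-high range, had 433 genes higher and 618 lower against the 11 Foxp3-high libraries, with 234 and 224 of them among the same genes. Fewer libraries in a set make separation easier, so these counts are not comparable in size. The 335 and 273 genes already had every Foxp3-low library outside the Foxp3-high range. A part of that set can lose them only through the difference of medians. The shared counts were thus largely fixed in advance, and nothing is read from them. The lower count was 441 without Treg KI 3 and 424 without Treg KO 4.

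The largest differences with higher levels in the Foxp3-low set belonged to effector genes of killing and of interferon-gamma. Gzmb (chromosome 14, 56258838 to 56262260, minus strand), which encodes the protease granzyme B, stood at 4416 TMM CPM in Treg WT 4, 1309 in Treg KI 3, 1657 in Treg KO 2 and 851 in Treg WT 3. The Foxp3-high libraries ran from 1.08 through a median of 18.6 to 67.7 TMM CPM, and the difference was 6.27. Ifng (chromosome 10, 118441046 to 118445892, plus strand), encoding interferon-gamma, stood at 846, 160, 157 and 78.7 TMM CPM in Treg WT 4, KI 3, KO 2 and WT 3, against 0.622 to 8.87 with a median of 1.74, a difference of 6.15. Both genes kept a wide gap between the lowest Foxp3-low and the highest Foxp3-high library. Gzmb was picked as a separated gene, so its lack of overlap is no result. Tbx21, encoding T-bet, stood at 62.7, 56.8, 47.3 and 38.4 TMM CPM in Treg WT 4, KI 3, KO 2 and WT 3, against 0.600 to 12.6 with a median of 4.06, a difference of 3.52. The order of Ifng and of Tbx21 over the 4 Foxp3-low libraries was that of Cd8a. Il2, encoding the growth factor interleukin-2, was near 1 TMM CPM in both sets, at 0.836 to 1.41 in the Foxp3-low set and 0.302 to 1.17 in the Foxp3-high set, and overlapped.

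Since the sets did not overlap in Ifng or Tbx21, they cannot overlap within a genotype either. The levels by genotype are given as a description. Ifng in Treg WT 4 and Treg WT 3, at 846 and 78.7 TMM CPM, stood against 0.622 to 0.886 TMM CPM in the 3 Foxp3-high WT libraries. In Treg KO 2, at 157 TMM CPM, it stood against 1.74 to 8.87 in the 4 Foxp3-high KO libraries, and in Treg KI 3, at 160, against 0.825 to 3.20 in the 4 Foxp3-high KI libraries. Tbx21 stood at 47.3 TMM CPM in Treg KO 2 against 4.06 to 12.6 in the Foxp3-high KO libraries, and at 62.7 and 38.4 in Treg WT 4 and WT 3 against 0.600 to 3.30 in the Foxp3-high WT libraries. Among the Foxp3-high libraries, KO libraries thus reached the highest Ifng and Tbx21 levels. Each genotype holds only 1 or 2 Foxp3-low libraries, so within a genotype low Foxp3 and the single library cannot be told apart.

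The other genes among the 12 of largest difference were picked from separated genes of that mean level, so their separation is no result. Gzmc, encoding granzyme C, had a difference of 4.86, with 41.99 to 278 TMM CPM in the Foxp3-low set and 0.610 to 8.23 in the Foxp3-high set. Klrk1, which encodes the activating receptor NKG2D of NK and CD8 T cells, had one of 4.11, with 38.4 to 166 TMM CPM in the Foxp3-low set and 1.001 to 10.9 in the Foxp3-high set. Atf3, a stress-induced transcription factor gene, differed by 4.12 and was highest in Treg WT 3, at 47.3 TMM CPM, where Cd8a was lowest of the set. The differences were 4.20 for AA467197, 3.97 for Tbkbp1, which encodes a binding partner of the kinase TBK1, 3.91 for Pkib, an inhibitor of protein kinase A, 3.80 for Plac8 and 3.72 for Tgm2, a transglutaminase. In the highest Foxp3-high library Atf3 reached 15.7 TMM CPM and Tgm2 26.1 TMM CPM.

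Klf2 and Nrp1 were among the genes with the largest differences that were lower in the Foxp3-low set. Klf2, a transcription factor that keeps T cells quiescent and drives S1pr1, stood at 1.46, 5.22, 3.78 and 4.93 TMM CPM in Treg WT 4, KI 3, KO 2 and WT 3. The Foxp3-high libraries ran from 25.8 through a median of 49.4 to 56.2 TMM CPM, and the difference was -3.37. Klf2 was picked from separated genes, so its lack of overlap is no result. Treg WT 3 lay inside the span of the other 3 Foxp3-low libraries. Nrp1, encoding neuropilin 1, a receptor used as a marker of regulatory T cells and responsive to TGF-beta, stood at 6.80, 5.75, 13.2 and 32.9 TMM CPM in Treg WT 4, KI 3, KO 2 and WT 3, against 56.4 to 143.3 with a median of 95.7, a difference of -3.27. Nrp1 was picked in the same way, and Treg WT 3 lay nearest to its Foxp3-high range.

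Ramp1, a partner of the calcitonin gene-related peptide receptor, had the largest difference among the lower genes named, at -4.51, with 0.912 to 2.31 TMM CPM in the Foxp3-low set and 5.15 to 85.1 in the Foxp3-high set. Drc1, known as a gene of the axoneme of cilia, followed at -4.40, with 1.11 to 8.17 TMM CPM in the Foxp3-low set and 17.2 to 95.2 in the Foxp3-high set. Pyroxd2 differed by -3.76, Tbc1d16 by -3.54, Nav1 by -3.45, the protease gene Capn3 by -3.21, Atp1b1, a subunit of the sodium pump, by -3.12, and Tead1, a transcription factor of the Hippo pathway, by -2.95. Tead1 spread widely within the Foxp3-low set, from 0.945 TMM CPM in Treg KI 3 to 34.4 TMM CPM in Treg WT 3, just under the 41.8 of the lowest Foxp3-high library.

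**Figure D2:**
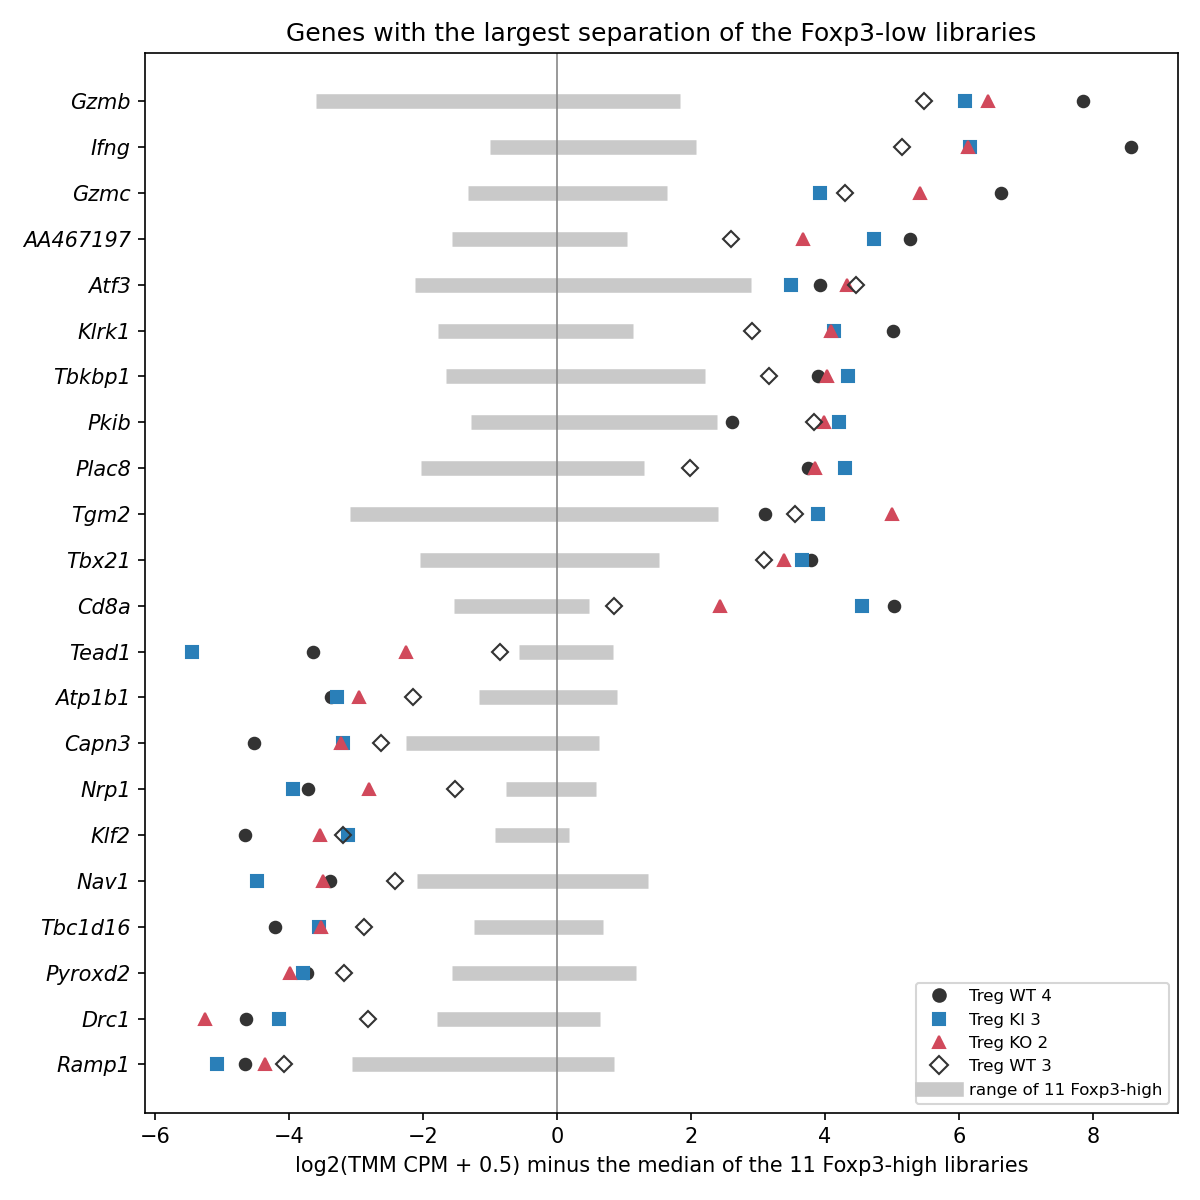
Levels of 22 of the separated genes named by size of difference, Foxp3 left out. Values are log2(TMM CPM + 0.5) minus the median of the 11 Foxp3-high libraries. Symbols are the 4 Foxp3-low libraries, grey bars the range of the Foxp3-high libraries. The genes were picked as separated, so every symbol lies outside its grey bar. Treg WT 3 lies nearest to the bar for most of these genes, Cd8a, Tead1 and Nrp1 among them. Another library lies nearest for Gzmc, Atf3, Pkib, Tgm2 and Klf2.

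Gene lists were described by their counts of separated genes beside the 1.53% and 1.25% of all genes. Of 389 listed genes, 387 passed the filter on low counts. Cytotoxic effectors held the largest share, with 10 of 17 members higher, none lower and a median difference of 1.78, against 0.00 over all genes. Gzma, encoding granzyme A, stood at 169, 7.502, 110 and 8.17 TMM CPM in Treg WT 4, KI 3, KO 2 and WT 3, against at most 0.769 in the Foxp3-high set. Prf1, encoding the pore-forming perforin, stood at 53.95, 16.03, 18.8 and 4.35 TMM CPM in the same order, against 1.17 to 2.90. Fasl, the death ligand gene, and Srgn, a granule proteoglycan gene, were also separated, at 28.9 to 48.6 TMM CPM in the Foxp3-low set against 0.876 to 12.2 for Fasl, and at 131.6 to 318 against 66.5 to 115.7 for Srgn. The granzyme genes C to G are near-identical copies, so reads can be shared between them and their separate levels are uncertain.

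The promoters of the cytotoxic genes are shown because 10 of the 17 genes of this list were separated in 1 direction. Sequences are those of RefSeq on GRCm38.p6, from 250 bases before to 50 after the annotated start. Of the 17 listed genes, 16 had a promoter there, with 18 promoters in all since a gene can have more than 1 start. The letters TGTGGT, the core of the motif bound by RUNX factors, were searched on both strands and stand in capitals below (ACCACA where the match is on the other strand). This motif was chosen with these sequences already seen. It was present in 13 of the 18 promoters of the list, those of the gene copies Gzmc to Gzmg among them, and in 16.8% of all 32851 promoters. The T-box letters TCACACC, searched likewise, were present in promoters of 3 of the listed genes and in 3.98% of all promoters. Each sequence is given 5′ to 3′ on the strand of its gene, and a match is no evidence of binding. Gzmb lies at chr14:56262285-56262584 on the minus strand, Prf1 at chr10:61297586-61297885 on the plus strand and Gzma at chr13:113100932-113101231 on the minus strand.
Gzmb: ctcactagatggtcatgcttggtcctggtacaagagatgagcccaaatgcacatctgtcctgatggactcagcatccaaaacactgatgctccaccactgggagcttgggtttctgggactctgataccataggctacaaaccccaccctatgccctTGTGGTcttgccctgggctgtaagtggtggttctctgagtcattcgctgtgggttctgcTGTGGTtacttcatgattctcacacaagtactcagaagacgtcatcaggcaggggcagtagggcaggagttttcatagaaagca
Prf1: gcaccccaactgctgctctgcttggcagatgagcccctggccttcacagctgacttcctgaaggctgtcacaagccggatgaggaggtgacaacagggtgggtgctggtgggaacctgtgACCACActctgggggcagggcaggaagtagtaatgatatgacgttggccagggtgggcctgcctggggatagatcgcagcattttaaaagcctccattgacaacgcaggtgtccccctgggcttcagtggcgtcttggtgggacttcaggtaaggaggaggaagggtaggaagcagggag
Gzma: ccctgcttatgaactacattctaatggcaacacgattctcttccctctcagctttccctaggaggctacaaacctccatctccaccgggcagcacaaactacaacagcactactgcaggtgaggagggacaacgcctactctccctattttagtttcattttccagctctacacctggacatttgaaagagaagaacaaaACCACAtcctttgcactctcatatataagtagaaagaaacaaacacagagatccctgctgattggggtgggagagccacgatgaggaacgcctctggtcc
Gzmb held 2 matches, and Prf1 and Gzma 1 each.

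The Th1 programme had 9 of 24 members higher and 1 lower, with a median difference of 1.40. Besides Tbx21 and Ifng, both chains of the interleukin-12 receptor were separated. Il12rb2, the chain that T-bet and interferon-gamma raise, stood at 241 to 447 TMM CPM in the Foxp3-low set and 3.51 to 169 in the Foxp3-high set, and Il12rb1 at 57.3 to 72.3 against 5.18 to 36.7. Stat4, which carries the interleukin-12 signal, stood at 179 to 302 TMM CPM against 31.3 to 119.2. The chemokine genes Ccl3 and Ccl4 were higher too, at 9.28 to 76.1 TMM CPM against 0.563 to 6.996 for Ccl3. The lower member was Txk, a kinase gene of T cells, at 25.3 to 39.4 TMM CPM in the Foxp3-low set against 66.8 to 105.6 in the Foxp3-high set. Th2 genes had 3 of 13 members higher and none lower. Il24 stood at 18.9 to 61.5 TMM CPM in the Foxp3-low set and at no more than 2.34 in the Foxp3-high set, and Il13, an effector cytokine of Th2 cells, at 0.719 to 7.76 against at most 0.388. Of the Th17 list 1 of 14 was higher, Il21 at 0.984 to 12.04 TMM CPM against at most 0.0939, and 1 was lower, Il6ra, a chain of the interleukin-6 receptor, at 22.1 to 46.99 TMM CPM against 82.1 to 212.

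Treg core genes other than Foxp3 were split, with 2 of 28 higher, 2 lower and a median difference of 0.34. The lower members were Nrp1 and Nt5e, which encodes the ectoenzyme CD73, at 99.8 to 109.3 TMM CPM in the Foxp3-low set and 167 to 805 in the Foxp3-high set. The higher members were Tnfrsf9, encoding the receptor 4-1BB, at 502 to 1004 TMM CPM against 85.7 to 297, and Tigit, an inhibitory receptor gene, at 25.5 to 68.5 against 3.52 to 15.2. Other core genes overlapped: Il2ra, the high-affinity interleukin-2 receptor chain, stood at 1334 to 2019 TMM CPM in the Foxp3-low set and 1337 to 2246 in the Foxp3-high set, and Ctla4 at 384 to 606 against 323 to 592. Lrrc32, encoding GARP, which holds latent TGF-beta on regulatory T cells, had a difference of -1.86 and overlapped, at 17.4 to 33.4 TMM CPM in the Foxp3-low set and 25.3 to 103.9 in the Foxp3-high set. Of 25 TGF-beta response genes 2 were higher, 1 was lower and the median difference was -0.18. The inhibitor Smad7 overlapped, at 14.5 to 25.97 TMM CPM in the Foxp3-low set against 23.3 to 67.7, while Skil, a TGF-beta target, had a difference of 0.07 and Pmepa1, another target, of 0.02. The separated members included Bhlhe40, higher, and Runx1, lower, at 22.96 to 48.9 TMM CPM against 69.8 to 151.

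The naive and quiescence list had 6 of 22 members lower and none higher, with a median difference of -0.73. Among them were Klf2, Klf3, S1pr1, Tcf7 and Igfbp4. Tcf7, encoding the factor TCF-1, stood at 127.1 to 204 TMM CPM in the Foxp3-low set and 270 to 480 in the Foxp3-high set, and S1pr1, the receptor for exit from lymph nodes, at 25.4 to 42.98 against 59.01 to 152. Ccr7, another gene of lymph node homing, overlapped, at 481 to 636 TMM CPM against 442 to 620, and Il7r had a difference of 1.57 in the other direction. Chemokine receptors and homing genes had 4 of 20 lower and none higher, with the integrin genes Itgb7 and Itga6 and S1pr1 among them. Activation and inhibitory receptors had 6 of 24 higher and 1 lower. Lag3, an inhibitory receptor gene, stood at 34.7 to 183 TMM CPM in the Foxp3-low set and 6.18 to 21.8 in the Foxp3-high set, and the adhesion receptor gene Cd44 at 290 to 588 against 118.6 to 243. Slamf6 was the lower one, at 5.81 to 24.3 TMM CPM against 61.7 to 149.

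Metabolic lists showed few separated genes. Glycolysis had 2 of 20 rows higher, Hk2 and Pfkp, which encode hexokinase 2 and a phosphofructokinase, beside 1.53% of all genes. Its median difference was 0.86, and 8 of its 20 rows had medians at least 1 log2 unit higher and none as much lower. Cholesterol synthesis had 1 of 18 higher, Lss, with a summed level of 3904 to 4266 TMM CPM in the Foxp3-low set against 1576 to 3727. Oxidative phosphorylation, the interferon-stimulated genes and the reported miR-150 targets had none separated of 20, 22 and 16. Myb, a known miR-150 target, stood at 77.2 to 136.03 TMM CPM in the Foxp3-low set and 79.03 to 326 in the Foxp3-high set.

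Markers of other cell types moved in part with the Foxp3 division. Of 12 CD8 T cell markers 4 were higher, Cd8a, Crtam, Klrc1 and Klrk1, and none lower, and the summed level of the list was 356 to 1603 TMM CPM in the Foxp3-low set against 124.5 to 302 in the Foxp3-high set. Of 12 NK and innate-like T cell markers 5 were higher, with a summed level of 51.4 to 125.9 TMM CPM against 10.5 to 33.4. These included Trdc, the constant segment of the T cell receptor delta chain, at 16.2 to 39.7 TMM CPM against 4.58 to 13.3, and Fcer1g, a signalling chain of NK cells, at 3.69 to 6.39 against 0.547 to 2.16. Ncr1, a receptor gene of NK cells, did not exceed 0.506 TMM CPM in the Foxp3-low set and 0.133 in the Foxp3-high set. Of the 2 haemoglobin genes that were separated, Hbb-bs stood at 0.542 to 1.06 TMM CPM against at most 0.415. None of 11 B cell markers, 7 MHC class II genes or 12 myeloid markers was separated, but Treg KI 3 stood above all others in several. Cd74, the invariant chain of MHC class II, stood at 703 TMM CPM in Treg KI 3 and at 89.0 to 114.7 in the other 3, against 99.3 to 312 in the Foxp3-high set, and the B cell factor gene Pax5 at 101.4 TMM CPM in Treg KI 3 and 1.22 to 12.3 in the other 3, against 1.77 to 37.1. In the CD4 lineage list, Tox was the separated one of 5, lower at 4.57 to 17.9 TMM CPM against 21.6 to 63.6. The part of these cell types in the gene differences was not tested. In Treg WT 3, Cd8a, Klrk1 and Trdc lay above the Foxp3-high range and Cd8b1 lay inside it.

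**Figure D3:**
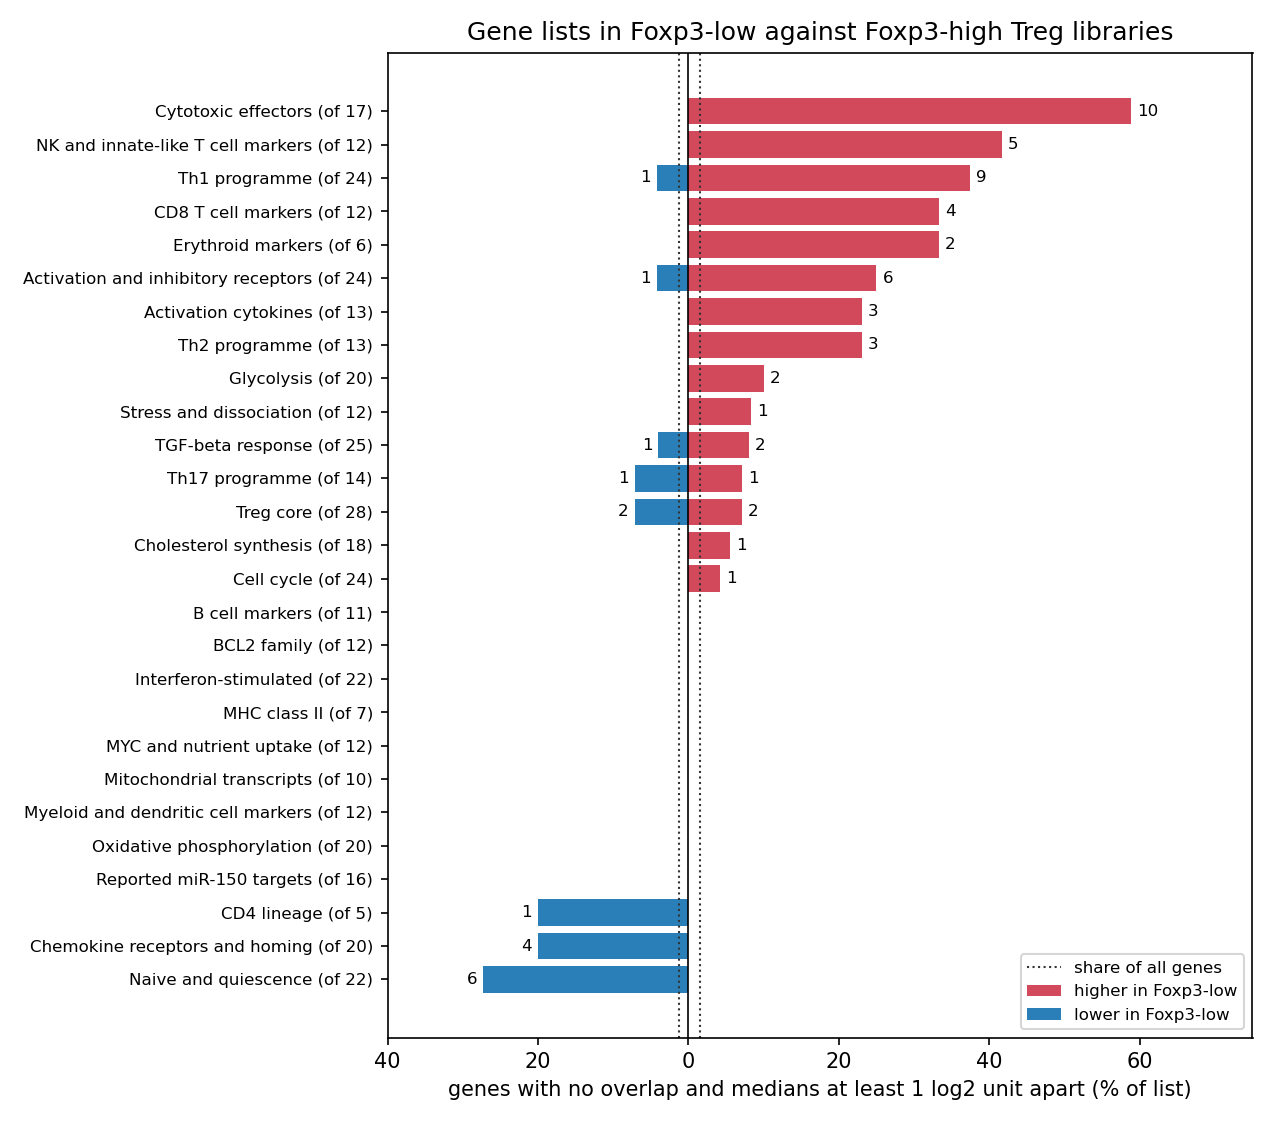
Share of each gene list separated between the Foxp3-low and Foxp3-high Treg libraries, in percent of the list's described rows, with higher in the Foxp3-low set to the right and lower to the left. Numbers are counts of genes, and dotted lines are the shares over all genes, 1.53% and 1.25%. Cytotoxic effectors lead on the right, with 10 of 17, and naive and quiescence genes on the left, with 6 of 22.

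To see whether the same pattern stood in libraries that the Foxp3 limit did not divide, the Th0 and Th1 libraries with the genotype and number of a Foxp3-low Treg library were set against the others of their culture. These were numbered WT 4, KI 3, KO 2 and WT 3, which gave 4 against 10 libraries in Th0 and 4 against 11 in Th1. Libraries with the same genotype and number deviated together from their group means: the correlation of deviations over genes averaged 0.355 in WT, 0.259 in KO and 0.387 in KI between Treg and Th0, and -0.086 to -0.057 between different numbers. Between Treg and Th1 it averaged 0.248, 0.266 and 0.321. The Foxp3-low libraries correlated with their Th0 and Th1 partners at 0.161 to 0.503. With libraries of another number they reached at most 0.411, in Treg WT 4 against Th0, where its own partner gave 0.484. The genes are not independent, and these values are given as a description.

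Cd8a was higher in the number-sharing libraries of both cultures. In Th0 it stood at 112.7 TMM CPM in WT 4, 107.4 in KI 3, 20.5 in KO 2 and 6.27 in WT 3, against 1.27 to 10.9 with a median of 4.68 in the other 10. In Th1 it stood at 131.5 TMM CPM in WT 4, 107.4 in KI 3, 21.3 in KO 2 and 4.56 in WT 3, against 1.34 to 31.7 with a median of 4.91 in the other 11. Of the 4, WT 4, KI 3 and KO 2 lay above every other Th0 library, and WT 3 lay within the range of the others in both cultures. The mean of log2(TMM CPM + 0.5) was higher by 2.75 in Th0 and by 2.60 in Th1, with two-sided exact permutation p of 0.004995 and 0.01172, or 0.01998 and 0.02344 after Benjamini-Hochberg adjustment over 4 tests. Left out in turn, Th0 KI 3 or Th0 WT 4 raised the adjusted exact p to 0.0699 and Th1 KI 3 or Th1 WT 4 to 0.0879. Foxp3, which these cultures hold at low levels, differed by 0.06 in Th0 and 0.60 in Th1, with exact p of 0.846 and 0.085, or 0.846 and 0.113 adjusted. Cd4 stood at 242, 279, 357 and 451 TMM CPM in Th0 WT 4, KI 3, KO 2 and WT 3, against 377 to 567 in the others.

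Over all genes, edgeR's quasi-likelihood test with genotype as a term and Benjamini-Hochberg adjustment called 897 genes higher in the number-sharing Th0 libraries, or 4.65% of 19298 tested, and 544 lower, or 2.82%, together 7.47%. In Th1 it called 1371 higher, or 7.12% of 19261, and 1067 lower, or 5.54%, together 12.7%. These counts moved with single libraries. Without Th0 KO 2 the Th0 counts were 405 and 297, without Th0 KI 3 they were 523 and 262, and without Th0 WT 4 the lower count was 345. Without Th1 KO 2 the Th1 counts were 457 and 368, and without Th1 WT 4 they were 628 and 468. Without Th1 WT 1, one of the others, 1629 were lower. In both cultures 460 genes were called higher and 188 lower.

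The genes separated with higher levels in Foxp3-low Treg libraries were often called higher in Th0. Of the 335, 334 were tested in Th0, and 152 were called higher there, or 45.5%, beside 4.65% of all genes, and 1 was called lower. These 152 were 16.9% of the Th0 genes called higher. In Th1, 331 were tested, 114 were called higher, or 34.4%, beside 7.12% of all genes, and 11 were called lower. The 114 were 8.32% of the Th1 genes called higher. Of the 273 lower genes, 252 were tested in Th0, with 38 called lower, or 15.1%, beside 2.82% of all genes, and 6 called higher. The 38 were 6.99% of the Th0 genes called lower. In Th1, 250 were tested, with 19 called lower, or 7.60%, beside 5.54% of all genes, and 21 called higher. The 19 were 1.78% of the Th1 genes called lower, so in Th1 the lower genes stood near the background. Both cultures called 90 of the 335 higher and 15 of the 273 lower genes in the same direction as in the Treg sets. Over all genes, 19298 tested in Th0 and 19261 in Th1, both cultures called 460 higher and 188 lower.

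Most of the cytotoxic effectors were called higher. Of 16 tested, 11 were higher and none lower in Th0, and 11 higher and none lower in Th1, beside 4.65% and 7.12% of all genes higher, with median log2 fold changes of 1.94 and 1.91 against 0.01 and 0.02 over all genes. Gzmb stood at 5143, 2962, 4420 and 2327 TMM CPM in Th0 WT 4, KI 3, KO 2 and WT 3, against 276 to 1762 in the others, a log2 fold change of 2.10 ± 0.41 (SE) and a Benjamini-Hochberg adjusted p in edgeR of 0.007759. In Th1 it stood at 5733, 2144, 2404 and 1585 TMM CPM in WT 4, KI 3, KO 2 and WT 3, against 399 to 954, with 1.93 ± 0.27 and 0.002259 for the edgeR adjusted p. All 4 lay above the others in both cultures, WT 3 included. Prf1 stood at 119.2, 115.7, 84.1 and 39.8 TMM CPM in Th0 WT 4, KI 3, KO 2 and WT 3, against 2.67 to 31.2, with a log2 fold change of 3.25, and its Th1 value was 2.96. Gzma had log2 fold changes of 4.70 in Th0 and 3.56 in Th1. The calls for Gzmb, Prf1 and Gzma held in both cultures when any single library was left out.

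**Figure D4:**
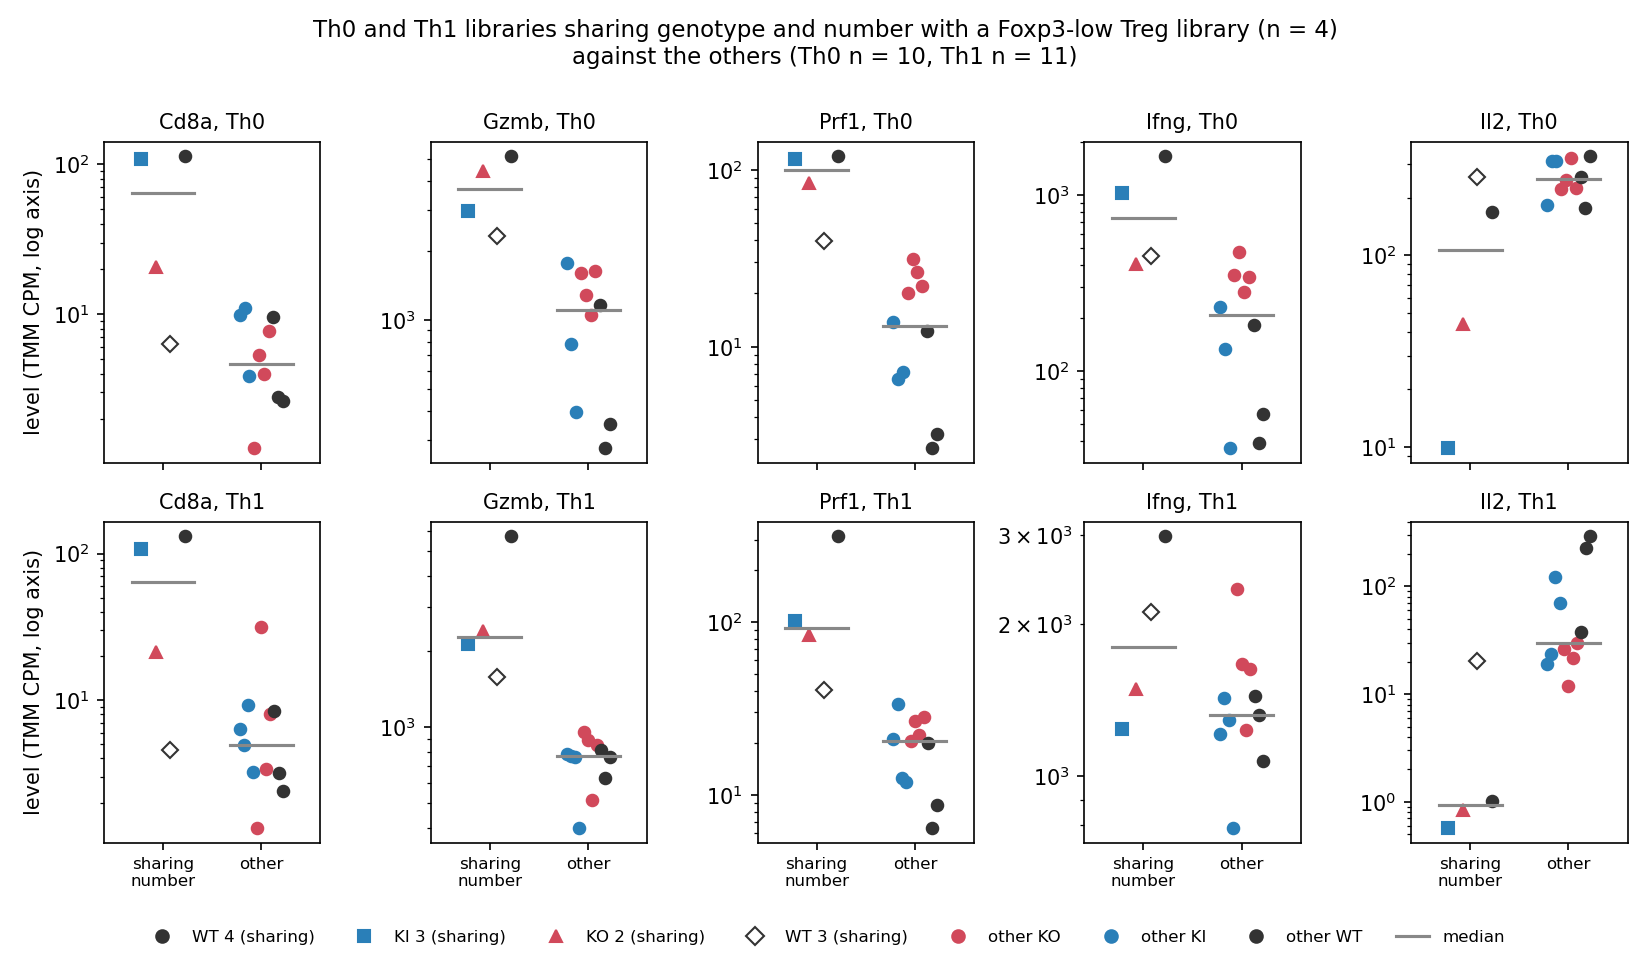
Levels of Cd8a, Gzmb, Prf1, Ifng and Il2 in Th0 and Th1 libraries, in TMM CPM on log axes, with the 4 libraries that share genotype and number with a Foxp3-low Treg library left of the others (10 in Th0, 11 in Th1). Points are libraries and grey lines medians. Gzmb and Prf1 of all 4 lie above the others in both cultures, while Cd8a of WT 3 lies among the others.

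Most of the NK and innate-like T cell markers were called higher as well. Of 12 NK and innate-like T cell markers, 10 were called higher in Th0, beside 4.65% of all genes, and 9 in Th1, beside 7.12%, and none lower. Trdc, one of them, had log2 fold changes of 1.85 ± 0.24 (SE) in Th0 and 1.68 ± 0.32 in Th1. Klrd1, which encodes CD94 and was listed with the CD8 T cell markers, had 2.57 ± 0.37 and 3.26 ± 0.36. Of 12 CD8 T cell markers, 5 were called higher in Th0 and 8 in Th1. Eomes, a T-box factor gene related to Tbx21, was called lower in both, at -1.54 and -1.29, the second lost without Th1 KO 2 with an edgeR adjusted p of 0.052. In the Treg sets it had a difference of 1.80 and overlapped. Klrk1 was called in Th1, at 2.11, and not in Th0, where its log2 fold change was 1.42. The difference between the cultures was not tested. By edgeR Cd8a itself had log2 fold changes of 3.27 in Th0, with an adjusted p of 0.005604, and 3.45 in Th1, with one of 0.01705. Without Th1 KI 3 or Th1 WT 4 the adjusted p of Cd8a in Th1 by edgeR was 0.111 and 0.121. Of 11 B cell markers 2 were called higher in Th0 and 3 in Th1, and of 7 MHC class II genes 3 and 2. None of either list was lower, beside 4.65% and 7.12% of all genes higher. H2-Ab1, an MHC class II gene, had log2 fold changes of 2.01 and 1.64, and each call was lost when any of 3 single libraries was left out. Of 10 myeloid markers tested, 1 was called higher in Th0 and none in Th1.

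Tbx21 did not pass the test in either culture. Of the 24 genes of the Th1 list, 4 were called higher and 2 lower in Th0, beside 4.65% and 2.82% of all genes, and 4 higher and 2 lower in Th1, beside 7.12% and 5.54%. Of the 29 Treg core genes, Foxp3 included, 12 were called higher and 3 lower in Th0 and 8 higher and 1 lower in Th1, beside the same shares. Tbx21 had log2 fold changes of 0.15 in Th0 and 0.17 in Th1, with adjusted p of 0.690 and 0.355 by edgeR, and the number-sharing Th0 libraries, at 46.5 to 84.9 TMM CPM, overlapped with the others, at 40.3 to 89.3. Ifng stood at 1660, 1022, 404 and 452 TMM CPM in Th0 WT 4, KI 3, KO 2 and WT 3, against 36.5 to 474, a log2 fold change of 2.70 and a Benjamini-Hochberg adjusted p in edgeR of 0.01752, which was 0.102 without Th0 KI 3 and 0.053 without Th0 WT 4. In Th1 its log2 fold change was 0.42, its edgeR adjusted p 0.229. Havcr2, encoding the inhibitory receptor TIM-3, was called in both, at 2.32 and 1.73.

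Cytokine genes were among those called higher in Th0. Il24 stood at 87.5, 58.1, 247 and 75.1 TMM CPM in Th0 WT 4, KI 3, KO 2 and WT 3, against 0.301 to 13.6 in the others, a log2 fold change of 5.84 ± 0.58 (SE), and was higher by 2.12 in Th1. Il13 had one of 4.75 in Th0, though Th0 KI 3, at 3.90 TMM CPM, lay within the range of the others, 0.734 to 12.2. Of 13 Th2 genes 9 were called higher in Th0, beside 4.65% of all genes, and 4 in Th1, beside 7.12%, and none lower. Of 13 activation cytokines 2 were called higher and 2 lower in Th0, beside 4.65% and 2.82% of all genes. In Th1, 1 of 12 tested was called higher and 5 lower, beside 7.12% and 5.54% of all genes. Il10, an anti-inflammatory cytokine gene, was higher by 3.46 in Th0 and by 2.44 in Th1, a call that edgeR lost without Th1 KO 2, where the adjusted p was 0.055. The other genes of largest increase in Th0 were Atp2b4, a calcium pump gene, at 3.46, Gzmc at 3.23 and Lilr4b, a receptor gene, at 3.18. In Th1 they were Cd93 at 3.37, Klrc1, encoding NKG2A, at 2.78, Cxcr2, a chemokine receptor gene, at 2.77, and Cdh17, a cadherin gene, at 2.68.

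Il2 was the gene with the largest decrease in Th1. It stood at 1.02, 0.572, 0.837 and 20.5 TMM CPM in Th1 WT 4, KI 3, KO 2 and WT 3, against 11.9 to 293 with a median of 29.6 in the others, a log2 fold change of -4.80 ± 0.93 (SE) and a Benjamini-Hochberg adjusted p in edgeR of 0.007371. Th1 WT 3 lay within the range of the others. In Th0 the log2 fold change of Il2 was -1.70, its edgeR adjusted p 0.113. Ccn1 at -4.54, Dnah7a at -4.49, Lad1 at -4.22, Nts at -3.82 and Tnfsf11, encoding RANKL, at -3.39 were also lower in Th1, of which edgeR lost Nts without Th1 KI 3 or Th1 KO 2, with adjusted p of 0.055 and 0.078. Cd40lg, the ligand gene by which CD4 T cells help B cells, was lower by 1.53 on the log2 scale in Th0 and by 0.96 in Th1, and Nrp1 by 0.99 and 1.58. The Cd40lg call in Th1 was lost without Th1 KO 2, at an edgeR adjusted p of 0.058.

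Other genes lower in Th0 were Drc1 at -3.83, Nrn1 at -3.12, Dnah7a at -3.03, Pla2g4f, a phospholipase gene, at -2.93 and Slamf6 at -1.66, whose calls held when any single library was left out. The interferon-stimulated list had 8 of 22 called lower in Th0, beside 2.82% of all genes, and none in Th1 or in the Treg sets, with median log2 fold changes of -1.01 in Th0 and -0.17 in Th1. Mx1, an antiviral gene, stood at 11.6, 9.51, 2.98 and 5.38 TMM CPM in Th0 WT 4, KI 3, KO 2 and WT 3, against 7.52 to 150 in the others. Its log2 fold change was -2.60 with an edgeR adjusted p of 0.0417, and the call was lost when any of 10 single libraries was left out, with adjusted p of up to 0.149 without Th0 KI 3. Klf2, which was low in the Foxp3-low Treg libraries, had log2 fold changes of -0.21 in Th0 and 0.67 in Th1, neither of which passed.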

How the data were processed

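Polyadenylated RNA of 44 cultures was sequenced in pairs of 150 bp from stranded libraries, as the labels' protocols state. The authors deposited whole-number counts per gene, 1 column for each library and lane, for 55416 genes. STAR alignments of trimmed reads, sorted by position, were the input of the counting, per the file headers. The submitters' processing notes name GRCh38, although the gene identifiers are those of mouse. The sources used here do not name the counting tool, its strand setting or its treatment of reads shared by several genes, so genes with near-identical copies or overlapping genes are uncertain. The authors' normalised table was not used. Coordinates are those of GENCODE M21 on GRCm38, which holds 52083 of the identifiers.

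The 2 columns of both lanes were added up for each library, and libraries were set apart at 250 CPM of Foxp3. Members, lists and rules were chosen with earlier results of these data known. TMM factors were computed over 44 libraries on the 21873 genes that edgeR's default filter kept. Th0 and Th1 were each fitted with edgeR 4.0.16 (R 4.3.3, quasi-likelihood test, genotype as a term, Benjamini-Hochberg adjustment over all genes, threshold 0.05), a method tried on simulated data first. Cd8a and Foxp3 were tested by exact permutation of the libraries. Libraries were checked for copies within groups, and the median chi-square per gene was at least 4.03 in all 86 pairs. Named were Foxp3, Cd8a, Cd8b1, Cd4, Ifng, Tbx21 and Il2, then, with a mean log2 TMM CPM of at least 2 and leaving out predicted genes, 12 genes each way for the Treg sets and 8 each way for Th0 and Th1 by size of difference, then up to 4 members of each of 27 lists and others needed to describe a list. Some genes that the rule names are not reported here. Where several rows carried 1 gene name, each row counted. Th0 KI 2 was not analysed here. Alternatives were DESeq2 1.42.0, other scalings, filters and pseudocounts, a replicate block and leaving out libraries.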

Additional observations from a re-analysis of the deposited data

Results flagged for a closer look

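Values were flagged where 1 library of a group of 4 or 5 stood apart from the rest by Dixon's criterion, which chance meets in about 1 in 20 groups. Cd8a stood apart at its highest in Treg WT 4 among the WT Treg libraries, at 443 TMM CPM, in Treg KI 3 among KI, at 318, and in Treg KO 2 among KO, at 73.1. In the other cultures it did so in the libraries numbered WT 4 and KI 3, at 112.7 TMM CPM in Th0 WT 4, 107.4 in Th0 KI 3, 131.5 in Th1 WT 4 and 107.4 in Th1 KI 3. Foxp3, which chose the sets, stood apart at its lowest in Treg KI 3, at 61.97 TMM CPM, and in Treg KO 2, at 77.4. Among the 4 Foxp3-low libraries, Ifng stood apart at its highest in Treg WT 4, at 846 TMM CPM.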

How the results depend on the processing

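The Treg sets hold 4 and 11 libraries and mix 3 genotypes, and their description depends on single libraries. Of the genes separated, 322 to 490 were higher and 270 to 441 lower in the Foxp3-low set when each Treg library was left out in turn, against 335 and 273. With a pseudocount of 2 the higher count was 207. The lower count was 483 without the libraries above the Cd8a limit and 618 for Treg WT 3 alone, an alternative chosen after seeing the data. In Th0, leaving out single libraries gave 702 to 2044 genes called in either direction, against 1441, and in Th1 825 to 3517, against 2438, where leaving out libraries that do not share a number was added after seeing the data. DESeq2 called 2372 in Th0 and 3828 in Th1, with 1438 and 2432 of the genes that edgeR called. The exact difference of Cd8a lay between 2.21 and 3.56 in Th0 and 1.97 and 3.54 in Th1 when each number-sharing library was left out, and no longer passed without KI 3 or WT 4. With the replicate number as a block across genotypes, 397 genes were called in Th0 and 411 in Th1. The numbers did not pair libraries across genotypes, where the correlation of deviations of same-numbered libraries averaged -0.230 to 0.085. The causes of these shifts were not tested. Among the named genes, no difference that was called or separated changed sign in the alternatives run. Some that were not did, such as Cd8b1 in the Treg sets, at -0.14 for Treg WT 3 alone against 2.23.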
